A study of Mus musculus with 4 samples.

Results

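The unfolded protein response genes described here are 10 genes chosen by name: Hspa5, Hsp90b1, Calr, Pdia4, Sdf2l1, Atf4, Ddit3, Trib3, Xbp1 and Herpud1. They are 10 of the 32245 gene symbols counted in single cells of brown adipose tissue (BAT), and all 10 were found. Positions below are those of the GENCODE vM21 annotation (GRCm38), in which each is a protein-coding gene. The response starts in the endoplasmic reticulum (ER), where proteins bound for membranes and secretion are folded. When unfolded proteins gather there, the sensors PERK, IRE1 and ATF6 signal to the nucleus: PERK favours translation of ATF4, which drives Ddit3 (CHOP) and Trib3, IRE1 splices the Xbp1 mRNA, and ATF6 and spliced XBP1 raise ER chaperones and the degradation machinery. Cells that secrete or take up much protein and lipid, among them macrophages and the collagen-making stromal cells of fat, keep part of this programme on in health.

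Cells came from the stromal vascular fraction (SVF), what remains of digested BAT once adipocytes are removed, and were sequenced with droplet 3′ libraries. All mice carry the strain label C57BL6/J. There was 1 library for each of 4 groups: wild-type mice (WT) of 10 weeks, db/db mice of 8 weeks (db/db 8w) and of 16 weeks (db/db 16w), which lack a working leptin receptor and become obese and diabetic, and mice on a high-fat diet (HFD), labelled 10 weeks and with HFD in place of a genotype. By the study's methods the diet began at 10 weeks of age and lasted 10 weeks. The methods thus make the HFD mice older than their label and older than WT, and their age stays unsettled. By the study's account each library pooled the SVF of several mice, all male, so no group had a replicate and no test between groups was run. The sex-linked RNA of db/db 16w, given below, is at odds with males only. Levels are given as CPM, the UMIs (unique molecules) of a gene for every 1000000 UMIs of the cells in question, with exact 95% Poisson intervals. Intervals of levels, ratios and shares cover counting error only, not the spread between mice or preparations. A count of 3′ molecules does not tell spliced from unspliced Xbp1 mRNA, and it does not see the control of ATF4 at translation.

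After the study's quality limits 5462 to 11648 cells per library remained, with 26558173 to 53420105 UMIs and a median of 2733 to 6218.5 UMIs per cell. The libraries stood apart before any result on the 10 genes. Between 1.04% (db/db 16w) and 68.5% (HFD) of the barcodes were at or over the 15% limit on mitochondrial UMIs, with 28.0% in WT and 35.6% in db/db 8w. The db/db 16w library held 206.6 CPM of Xist, a transcript of female cells, against 0.187 to 0.688 in the other libraries. It held 17.7 CPM of 4 Y-chromosome genes against 164 to 188, although the methods name males only. Every ratio of db/db 16w to WT below therefore also compares libraries unlike in sex-linked RNA. Pairs of libraries shared 16 to 97 cell barcodes, at most 0.629% of the smaller library. A cell was put in a lineage if it held at least 5 UMIs from at least 2 marker genes of that lineage and at least 80% of its marker UMIs over 10 lineages. This gave 1060, 2461, 2286 and 1407 macrophage-gated and 4336, 6742, 1187 and 1640 stromal-gated cells. Here and below, 4 values follow the order WT, db/db 8w, db/db 16w, then HFD, and 3 values the same order without WT, unless libraries are named. Their own markers were present in every library: the 8 macrophage markers summed to 5556 to 13200 CPM in macrophage-gated cells, and the 7 stromal markers to 41928 to 51173 CPM in stromal-gated cells. Stromal markers in macrophage-gated cells were at 819, 414, 23.0 and 332 CPM, and macrophage markers in stromal-gated cells at 134, 378, 203 and 470. Endothelial-gated cells numbered 8, 53, 1053 and 691, so those of WT were left out.

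Several of the genes carry in their promoters the ER stress response element (ERSE), to which ATF6 binds together with the factor NF-Y, or its shorter form ERSE-II. RefSeq promoters, from 250 bases before to 50 after the start of transcription, were matched by symbol for all 10 genes (build GRCm38.p6). The motif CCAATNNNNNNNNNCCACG was searched on both strands, and 3 of the 10 promoters held it (Hspa5, Calr and Hsp90b1), against 0.119% of 32851 promoters. The motif ATTGGNCCACG was in 1 of the 10 (Herpud1) and in 0.0365% of all promoters. The ATF4-type element TGATGNAA was in 2 of the 10 (Herpud1 and Trib3) and in 3.97% of all, and TGACGTGG, the core of an XBP1 element, in 0 of the 10 and 0.676% of all. ERSE and ERSE-II are built from CCAAT, or its complement, and CCACG, which alone were in 8 and 7 of the 10 and in 37.4% and 32.8% of all promoters. The 10 genes were chosen by name as genes of the ER stress response, for which ERSE is named. Their matches beside the shares of all promoters are therefore a description and not an enrichment found here. A match is a description of letters and no proof of binding, and the absence of a match says only that these letters were not in the window. The stretches below are those of the 4 genes that carry ERSE or ERSE-II. The levels of these genes, given in what follows, differ between the libraries. So do those of members without either element, among them Sdf2l1 and Atf4. Each is read in the direction of the gene and has the 2 conserved blocks of 5 bases in capitals, with 20 bases on either side. Each lies before the RefSeq start, which for Hspa5, Hsp90b1 and Calr is inside the GENCODE gene. Only the Hspa5 stretch itself lies within its GENCODE gene, whose first base is further upstream.

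Hspa5 ERSE (chr2:34772005-34772063, plus strand, motif 65 to 47 bases before the start): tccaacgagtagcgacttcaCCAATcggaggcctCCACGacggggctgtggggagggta
Hsp90b1 first ERSE (chr10:86705618-86705676, minus strand, motif 212 to 194 bases before the start): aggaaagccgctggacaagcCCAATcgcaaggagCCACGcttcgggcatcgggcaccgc
Hsp90b1 second ERSE, on the opposite strand (chr10:86705513-86705571, minus strand, motif 107 to 89 bases before the start): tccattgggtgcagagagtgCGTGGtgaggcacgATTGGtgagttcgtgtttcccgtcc
Calr ERSE, on the opposite strand (chr8:84847055-84847113, minus strand, motif 162 to 144 bases before the start): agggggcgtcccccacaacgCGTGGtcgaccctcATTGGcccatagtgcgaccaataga
Herpud1 ERSE-II (chr8:94386357-94386407, plus strand, motif 52 to 42 bases before the start): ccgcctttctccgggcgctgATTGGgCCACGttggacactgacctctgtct

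Among the ER chaperones, Hspa5 (BiP, the main Hsp70 of the ER and the protein that holds the sensors inactive; chr2:34771970-34777547, plus strand) differed most between the libraries. In macrophage-gated cells it stood at 1742 (1712 to 1772), 2196 (2174 to 2218), 372 (363 to 382) and 952 CPM (933 to 971). The 4 libraries did not overlap in their counting intervals, with db/db 8w highest and db/db 16w lowest. Against WT the db/db 8w level was 1.26-fold higher, the db/db 16w level 4.68-fold lower and the HFD level 1.83-fold lower, with log2 ratios of 0.33 (0.31 to 0.36), -2.23 (-2.27 to -2.18) and -0.87 (-0.91 to -0.83). In stromal-gated cells Hspa5 was at 1198, 987, 368 and 1169 CPM, so db/db 16w was again lowest, at a log2 ratio of -1.70 (-1.77 to -1.63) to WT. The stromal HFD level lay close to WT (log2 ratio -0.04, -0.07 to -0.01), and this sign turned under other settings. In endothelial-gated cells Hspa5 was at 455 (346 to 587, from 53 cells), 269 and 951 CPM in the libraries other than WT.

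Hsp90b1 (GRP94, the Hsp90 of the ER; chr10:86690209-86705509, minus strand) did not follow Hspa5. Its macrophage levels were 473, 726, 582 and 783 CPM, and all 3 libraries of obese mice lay above WT, by log2 ratios of 0.62 (0.57 to 0.67), 0.30 (0.25 to 0.36) and 0.73 (0.67 to 0.79). Its stromal levels were 385, 590, 542 and 933 CPM, with log2 ratios of 0.62, 0.49 and 1.28. Every 3′ molecule is counted once whatever the length of the mRNA, so both genes can be set against each other within a library, as far as they are captured equally. The log2 ratio of Hspa5 to Hsp90b1 UMIs was 1.88 (1.83 to 1.94), 1.60 (1.57 to 1.63), -0.65 (-0.69 to -0.60) and 0.28 (0.24 to 0.32) in macrophage-gated cells. In stromal-gated cells it was 1.64, 0.74, -0.56 and 0.33. This ratio does not depend on how the libraries are scaled. Over all cells of either lineage it was above 0 in WT, db/db 8w and HFD and below 0 in db/db 16w. Hspa5 accordingly made up 51.1% of the 10 genes' macrophage UMIs in WT and 21.4% in db/db 16w. In stromal cells the ratio of Hspa5 to Hsp90b1 also moved with transcripts that tissue digestion can induce, as given further below.

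Calr (calreticulin, a calcium-binding lectin chaperone of the ER; chr8:84841850-84846934, minus strand) was at 472, 792, 380 and 818 CPM in macrophage-gated cells and at 302, 494, 268 and 645 in stromal-gated cells. It lay above WT in db/db 8w and HFD, by log2 ratios of 0.75 and 0.80 in macrophages and 0.71 and 1.09 in stromal cells. The db/db 16w levels were below WT by less than 1.5-fold (-0.31 and -0.17). The macrophage value came to -0.00044 under TMM scaling, a scaling that assumes most genes alike between libraries.

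Sdf2l1 (a partner of the ER Hsp40 proteins; chr16:17130138-17132383, minus strand) had macrophage levels of 37.1 (32.9 to 41.7), 123 (118 to 129), 90.3 (85.9 to 94.9) and 96.9 CPM (91.1 to 103). WT was the lowest library, and all 3 others were more than 2-fold above it, with log2 ratios of 1.74 (1.55 to 1.92), 1.28 (1.10 to 1.47) and 1.39 (1.19 to 1.58). The stromal levels were 16.6, 24.5, 14.7 and 17.5 CPM. The stromal ratios moved with the settings and are not read in a direction in db/db 16w and HFD: the db/db 16w log2 ratio of -0.18 ranged from -0.86 to 0.09, and that of HFD, 0.08, from -0.37 to 0.52. Pdia4 (a protein disulfide isomerase, which forms disulfide bonds in the ER; chr6:47796141-47813430, minus strand) was at 73.2, 103, 79.2 and 72.6 CPM in macrophages and at 43.9, 71.7, 85.3 and 109 in stromal cells. The 3 stromal levels were all more than 1.5-fold above WT (log2 ratios 0.71, 0.96 and 1.32), and none of the 3 macrophage levels was (0.50, 0.11 and -0.01).

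**Figure D1:**
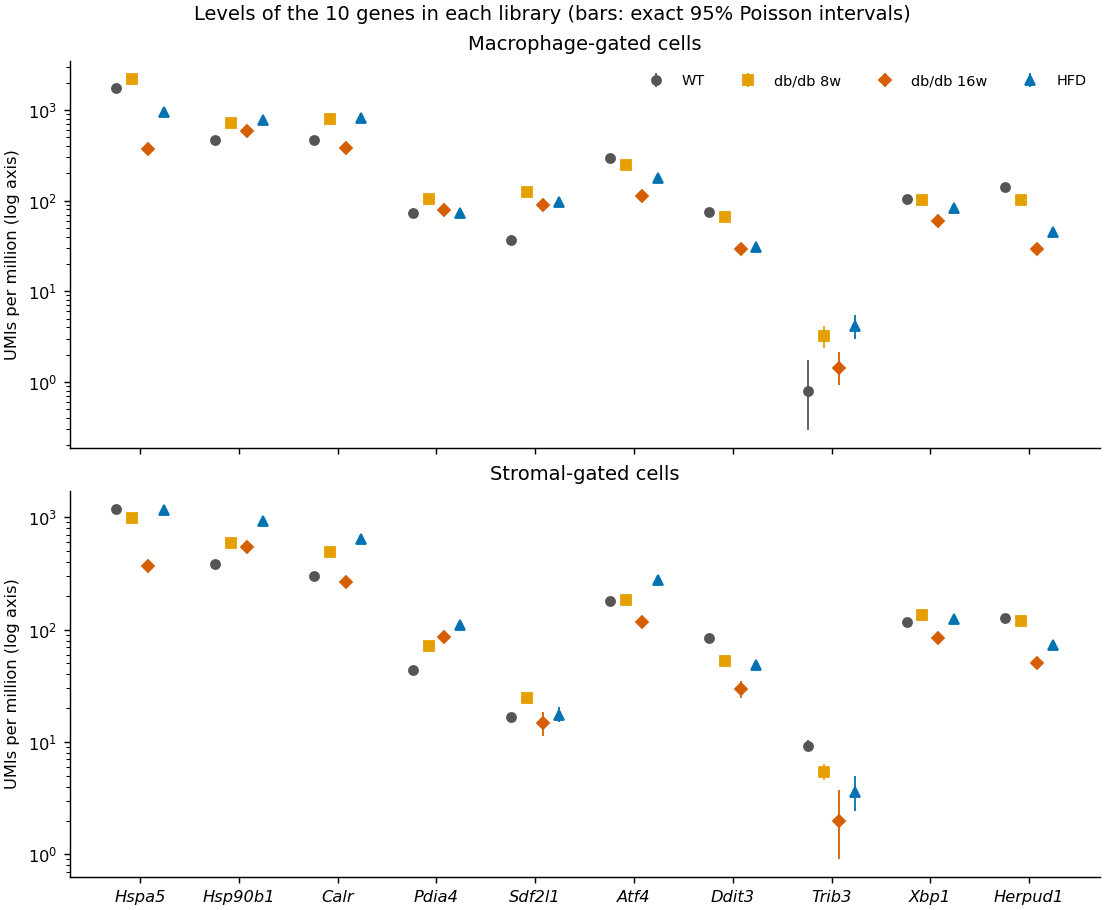
Levels of the 10 genes in macrophage-gated (top) and stromal-gated cells (bottom) in CPM on a log axis, 1 point per library with an exact 95% Poisson interval. Hspa5 of db/db 16w sits at 372 and 368 CPM, below the other 3 libraries in both panels, while Hsp90b1 of WT (473 and 385 CPM) is the lowest of the 4.

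Of the PERK branch, Atf4 (the transcription factor of this arm; chr15:80255184-80257541, plus strand) had macrophage levels of 294, 250, 113 and 176 CPM, all 3 libraries of obese mice being below WT, with log2 ratios of -0.23 (-0.31 to -0.16), -1.38 (-1.47 to -1.29) and -0.74 (-0.83 to -0.65). Its stromal levels were 181, 185, 117 and 278 CPM, and here HFD was the highest library (log2 ratio 0.62, 0.55 to 0.68). Ddit3 (CHOP, a factor linked to cell death under lasting stress; chr10:127290774-127296288, plus strand) was at 74.7, 66.7, 29.2 and 31.0 CPM in macrophages and at 83.8, 52.7, 29.6 and 48.1 in stromal cells. WT was the highest library in both lineages, though its macrophage interval (68.6 to 81.2) overlapped that of db/db 8w (62.8 to 70.7), and db/db 16w was lower by log2 ratios of -1.36 (-1.53 to -1.18) and -1.50 (-1.76 to -1.25). The files hold 2 gene IDs for Ddit3 that overlap, and the second held 0 UMIs, so reads in the stretch that both share may not have been counted. Trib3 (a pseudokinase that ATF4 and CHOP induce; chr2:152337422-152344032, minus strand) was near the lower end of what these libraries resolve in macrophages, at 0.803, 3.18, 1.44 and 4.09 CPM from 6, 54, 25 and 43 UMIs. In stromal cells it was at 9.25, 5.40, 1.97 and 3.57 CPM from 324, 156, 9 and 33 UMIs, highest in WT, and no Trib3 ratio entered the counts below, which need 20 CPM.

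Of the IRE1 branch and ER degradation, Xbp1 (total mRNA of the factor that IRE1 splices; chr11:5520659-5525893, plus strand) was at 105, 102, 60.3 and 83.3 CPM in macrophages and at 116, 136, 85.0 and 125 in stromal cells. It was lowest in db/db 16w in both, with log2 ratios of -0.80 (-0.94 to -0.67) and -0.45 (-0.60 to -0.30). Herpud1 (a membrane protein of the ER degradation complex; chr8:94386438-94395377, plus strand) was at 140, 101, 29.2 and 44.8 CPM in macrophages and at 127, 120, 50.6 and 73.3 in stromal cells. WT was highest and db/db 16w lowest in both, and the macrophage log2 ratios of -0.48 (-0.59 to -0.36), -2.27 (-2.42 to -2.11) and -1.65 (-1.81 to -1.49) were, in db/db 16w, of the size of that of Hspa5.

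**Figure D2:**
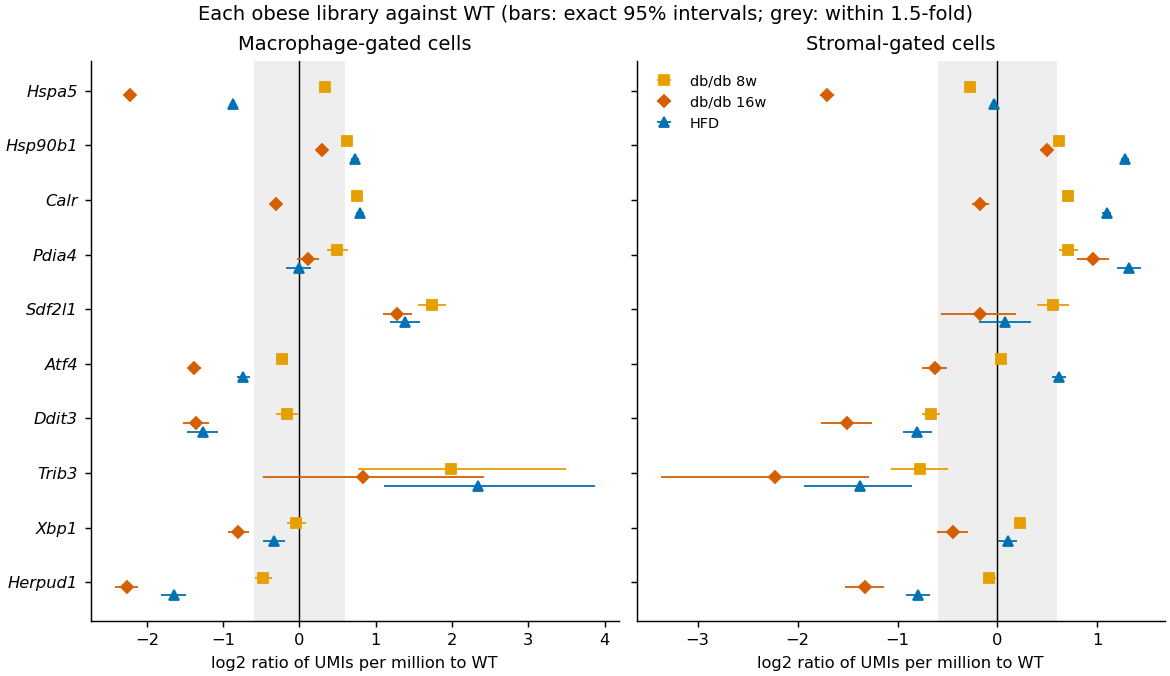
Log2 ratio of each gene's CPM in the 3 libraries of obese mice to WT, in macrophage-gated (left) and stromal-gated cells (right), with exact 95% intervals for counting error; the grey band spans 1.5-fold either way. Sdf2l1 lies to the right of the band in macrophages of all 3 libraries (1.28 to 1.74), whereas Hspa5 and Herpud1 of db/db 16w lie to the left in both lineages.

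Summed over the 10 genes, the macrophage level was 3411, 4464, 1737 and 3062 CPM and the stromal level 2462, 2667, 1563 and 3400 CPM. The log2 ratios of these sums to WT were 0.39, -0.97 and -0.16 in macrophages and 0.12, -0.66 and 0.47 in stromal cells. The largest share of the sum was that of Hsp90b1 in db/db 16w and that of Hspa5 in the other 3 libraries, in both lineages. Genes were counted as higher or lower when the level differed at least 1.5-fold from WT, among genes with at least 20 CPM in either library. The share of all genes past that fold is the background to each count. In macrophages of db/db 8w 3 of 9 members were higher (Hsp90b1, Calr and Sdf2l1) and 0 lower, against 17.3% and 13.4% of all 5723 genes. In macrophages of db/db 16w 1 of 9 was higher (Sdf2l1) and 5 lower (Hspa5, Atf4, Ddit3, Xbp1 and Herpud1), against 32.6% and 36.4% of 6048. In macrophages of HFD 3 of 9 were higher (Hsp90b1, Calr and Sdf2l1) and 4 lower (Hspa5, Atf4, Ddit3 and Herpud1), against 30% and 19.5% of 6082.

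In stromal cells of db/db 8w 3 of 9 members were higher (Hsp90b1, Calr and Pdia4) and 1 lower (Ddit3), against 9.99% and 8.42% of 6307 genes. In those of db/db 16w 1 of 8 was higher (Pdia4) and 4 lower (Hspa5, Atf4, Ddit3 and Herpud1), against 25.2% and 25.6% of 6593. In those of HFD 4 of 8 were higher (Hsp90b1, Calr, Pdia4 and Atf4) and 2 lower (Ddit3 and Herpud1), against 21.3% and 15.9% of 6648. Over all kept cells, where the makeup of the libraries also differs, 4 of 9 members were higher and 0 lower in db/db 8w (14.7% and 12.8% of all genes). The db/db 16w counts were 1 and 5 (29.9% and 37.1%), and those of HFD 4 and 2 (28.5% and 18.9%). With so few members, these counts are read beside the background and no more, and in db/db 16w at least 25% of all genes were past the fold in each direction within a lineage. The median log2 ratio of the members tested was 0.33, -0.80 and -0.33 in macrophages and 0.23, -0.54 and 0.36 in stromal cells, beside medians over all genes tested of 0.05, -0.09 and 0.20, and of 0.03, 0.01 and 0.10.

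TMM scaling moved every macrophage log2 ratio by 0.08, 0.31 and -0.11 and every stromal one by -0.05, -0.10 and -0.25. It turned the split of all genes in macrophages of db/db 16w to 42.7% higher and 26.4% lower, with 2 members higher and 4 lower, and in stromal cells of HFD to 12.5% and 26.2%, with 3 members higher and 2 lower.

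Endothelial-gated cells could be compared between HFD and db/db 16w, which are also unlike in sex-linked RNA. The cells had a median of 4547 UMIs in HFD and 1101 in db/db 16w. Their median mitochondrial share was 11.2% and 1.34%. Here 5 of 8 members were at least 1.5-fold higher in HFD (Hspa5, Calr, Pdia4, Hsp90b1 and Ddit3) and 1 lower (Herpud1), against 35.8% and 15.6% of 6493 genes. Hspa5 had the largest ratio of the 8, at 951 CPM in HFD and 269 in db/db 16w, a log2 ratio of 1.82 (1.67 to 1.97). The log2 ratio of Hspa5 to Hsp90b1 UMIs was 1.001 (0.92 to 1.09) in HFD and -0.08 (-0.28 to 0.13) in db/db 16w. Atf4 made up 20.6% of the 10 genes' UMIs in endothelial-gated cells of db/db 16w and 6.50% in its macrophages. The median log2 ratio of the 8 members was 0.70, beside 0.26 over all genes tested.

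The other genes of the pathway were taken from lists. Every list count below is read beside the share of all genes past 1.5-fold in the same comparison. These shares were 17.3%, 32.6% and 30% higher and 13.4%, 36.4% and 19.5% lower in macrophages. In stromal cells they were 9.99%, 25.2% and 21.3% higher and 8.42%, 25.6% and 15.9% lower, and in endothelial-gated cells 35.8% higher and 15.6% lower. Of 4 sensor genes (Ern1, Eif2ak3, Atf6 and Atf6b) 1 or 2 were tested in each comparison, and 1 passed 1.5-fold, Atf6 in stromal cells of db/db 16w. Atf6 was at 72.6, 63.0, 50.2 and 73.1 CPM in macrophages and at 47.4, 32.7, 28.1 and 40.1 in stromal cells, where db/db 16w was lower by a log2 ratio of -0.76 (-1.03 to -0.50). Eif2ak3 (PERK) had stromal levels of 19.9 to 24.3 CPM. Of 14 other ER chaperones and folding enzymes, 7 of 14, 3 of 13 and 2 of 13 tested were at least 1.5-fold higher in macrophages of the 3 libraries, and 1, 2 and 1 lower. In stromal cells 7 of 12, 4 of 10 and 9 of 13 were higher, and 0, 2 and 0 lower. The median log2 ratios of this list were 0.56, 0.28 and 0.41 in macrophages and 0.62, 0.32 and 0.63 in stromal cells, above the medians over all genes given before. In endothelial-gated cells of HFD against db/db 16w 5 of 10 were higher and 0 lower.

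The members of that list did not move together. Ppib (cyclophilin B, a collagen-folding isomerase) was at 180, 294, 478 and 258 CPM in macrophages and at 347, 531, 836 and 521 in stromal cells, highest in db/db 16w in both. Dnajb9 (an ER Hsp40 that binds BiP and restrains IRE1) went the other way in that library. It was at 121, 89.2, 16.5 and 70.0 CPM in macrophages, a log2 ratio of -2.87 (-3.07 to -2.68) in db/db 16w, and at 88.2, 72.8, 46.7 and 154 in stromal cells. Sil1 (the exchange factor of BiP) was at 33.5, 21.4, 20.7 and 23.8 CPM in macrophages, and P4hb (protein disulfide isomerase) at 213, 345, 376 and 370 in stromal cells.

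Of 12 genes of ER degradation and translocation, 2, 2 and 1 of 11 tested were higher in macrophages and 0, 2 and 0 lower, while in stromal cells 2, 3 and 2 of 11 were higher and 0, 1 and 1 lower. The endothelial counts were 1 higher and 2 lower of 10. These counts too are read beside the shares of all genes given with the sensors. Sec61b (a subunit of the translocation channel) was at 208, 273, 592 and 253 CPM in macrophages and at 121, 244, 440 and 238 in stromal cells. Selenos, of the degradation complex, was at 91.2, 157, 190 and 110 CPM and at 90.9, 170, 260 and 148. Both were highest in db/db 16w. Syvn1 (HRD1, the ubiquitin ligase of that complex) was at 22.0, 23.5, 10.8 and 16.7 CPM in macrophages, and Edem2, which marks misfolded glycoproteins, at 60.4, 43.0, 28.7 and 15.5 in stromal cells.

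Of 13 other ATF4 targets only 6 were tested in macrophages, where 1, 2 and 2 were higher and 1, 4 and 4 lower, and 7 in stromal cells, where 2, 2 and 0 were higher and 2, 4 and 2 lower. The endothelial counts were 1 higher and 2 lower of 5. Their background is again the shares of all genes given with the sensors. Ppp1r15a (GADD34, which ends the translational block of PERK) was at 679, 709, 66.9 and 127 CPM in macrophages. Nupr1, a stress-induced nuclear protein, was at 234, 216, 13.8 and 22.1. WT and db/db 8w were alike in both genes to within a log2 ratio of 0.11, and db/db 16w (-3.34 and -4.08) and HFD (-2.42 and -3.40) were lower. Psat1, an enzyme of serine synthesis, was at 2.81, 16.1, 24.3 and 21.4 CPM, lowest in WT. In stromal cells Atf3 was at 676, 395, 87.5 and 269 CPM and Cebpb at 513, 338, 117 and 161, both highest in WT, whereas Ddit4, which restrains mTORC1, was at 21.9, 63.2, 102 and 32.2 and lowest in WT. Atf3 and Cebpb had the same order of libraries as the stromal sum of immediate-early and heat-shock genes given next. These ATF4 targets were not split by that list.

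Transcripts that tissue digestion and handling can induce moved with part of these results. A list of 9 immediate-early and heat-shock genes (Fos, Jun, Junb, Egr1, Ier2, Hspa1a, Hspa1b, Dnajb1 and Hspb1), which holds none of the 10 genes, summed to 23528, 10563, 3258 and 3750 CPM in macrophages and to 16986, 13005, 6430 and 9750 in stromal cells. In macrophages all 9 of 9 were at least 1.5-fold lower than WT in both db/db libraries and 8 of 9 in HFD, and in stromal cells 1, 8 and 5 of 9 were. Of all genes tested 13.4%, 36.4% and 19.5% were so in macrophages and 8.42%, 25.6% and 15.9% in stromal cells. Dnajb1, a heat-shock Hsp40 of the cytosol, was at 1336, 336, 57.9 and 41.2 CPM in macrophages, and Junb at 2279, 1257, 514 and 1093 in stromal cells. In endothelial-gated cells the list summed to 20449 CPM in db/db 16w and 12339 in HFD. Mitochondrial UMIs were 5.76%, 4.47%, 0.824% and 8.92% of macrophage UMIs and ribosomal protein UMIs 10.9%, 14.6%, 22.2% and 11.6%. With both left out, the log2 ratios of the summed 10 genes to WT went from 0.39, -0.97 and -0.16 to 0.43, -0.86 and -0.087 in macrophages. The cells of each lineage were therefore split by how many of 1000 randomly kept UMIs came from the list, a split chosen after the data were seen. The median was 23, 8, 2 and 4 list UMIs per macrophage and 11, 6, 1 and 9 per stromal cell.

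Stromal Hspa5 was higher in cells with more list UMIs. In WT it was at 316 CPM (306 to 327) in cells with 0 to 5 list UMIs, 800 with 6 to 11, 1558 with 12 to 24 and 1918 (1891 to 1946) with 25 or more. In db/db 8w the same 4 classes stood at 549, 844, 1191 and 1852 CPM, and in HFD the first 3 at 986, 1195 and 1267. Hspa5 in stromal cells with 25 or more list UMIs was thus above that in cells with 0 to 5 by a log2 ratio of 2.60 in WT and 1.75 in db/db 8w, but by 0.42 in db/db 16w, where 80 cells had so many. Ddit3 (2.21, 1.77 and 1.17) and Atf4 (1.40, 1.06 and 0.90) were also higher in the cells rich in list UMIs in all 3 libraries, whereas Hsp90b1 was not (-0.03, -0.34 and -0.58). In these 3 libraries the stromal ratio of Hspa5 to Hsp90b1 was thus higher in the cells rich in list UMIs. Whether its sign differs between libraries within a class was not tested. In macrophages Hspa5 was at 1518, 1579, 1737 and 1910 CPM over the same 4 classes in WT. In db/db 8w it was lower in the upper 2 classes, at 2331, 2363, 1803 and 1865 CPM (log2 ratio of the last class to the first -0.32, -0.37 to -0.27). Over the first 3 classes it was at 365, 374 and 472 in db/db 16w and at 939, 988 and 1019 in HFD. In endothelial-gated cells of db/db 16w Atf4 was at 75.4 CPM with 0 to 5 list UMIs and 382 with 25 or more (log2 ratio 2.34, 1.55 to 3.25), beside 275 and 309 for Hspa5 (0.17, -0.32 to 0.68). Whether the classes also differ in cell subtype was not tested.

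Compared at 0 to 5 list UMIs alone, the lineages parted. In stromal cells Hspa5 was at 316, 549, 314 and 986 CPM (1568, 2665, 787 and 422 cells), so the db/db 16w level was that of WT (log2 ratio -0.01, -0.12 to 0.09) and the HFD level lay above it (1.64, 1.56 to 1.72). The summed level of the 10 genes turned from below to above WT in stromal db/db 16w, from -0.66 over all stromal cells to 0.19 (0.14 to 0.24), and stromal Atf4 of db/db 16w went from -0.63 to -0.04 (-0.24 to 0.15). Stromal Herpud1 stayed below WT in db/db 16w (-1.10, -1.37 to -0.84). In macrophages of this class Hspa5 was at 1518, 2331, 365 and 939 CPM (119, 937, 1658 and 968 cells), with log2 ratios to WT of 0.62 (0.55 to 0.69), -2.06 (-2.13 to -1.97) and -0.69 (-0.77 to -0.62). Macrophage Hspa5 of db/db 16w was below WT in these cells as it was over all macrophages (-2.23), and so were Herpud1 (-1.93), Atf4 (-1.51) and Ddit3 (-1.04). Sdf2l1 was above WT in the 3 libraries, at 1.46, 0.76 and 0.86, and Hsp90b1 in db/db 8w and HFD (0.31 and 0.33) but not in db/db 16w (-0.10, -0.21 to 0.01). Within the class the libraries were not matched for list UMIs. Over all macrophages the 10th percentile of WT was 5 list UMIs, while the median of db/db 16w was 2.

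**Figure D3:**
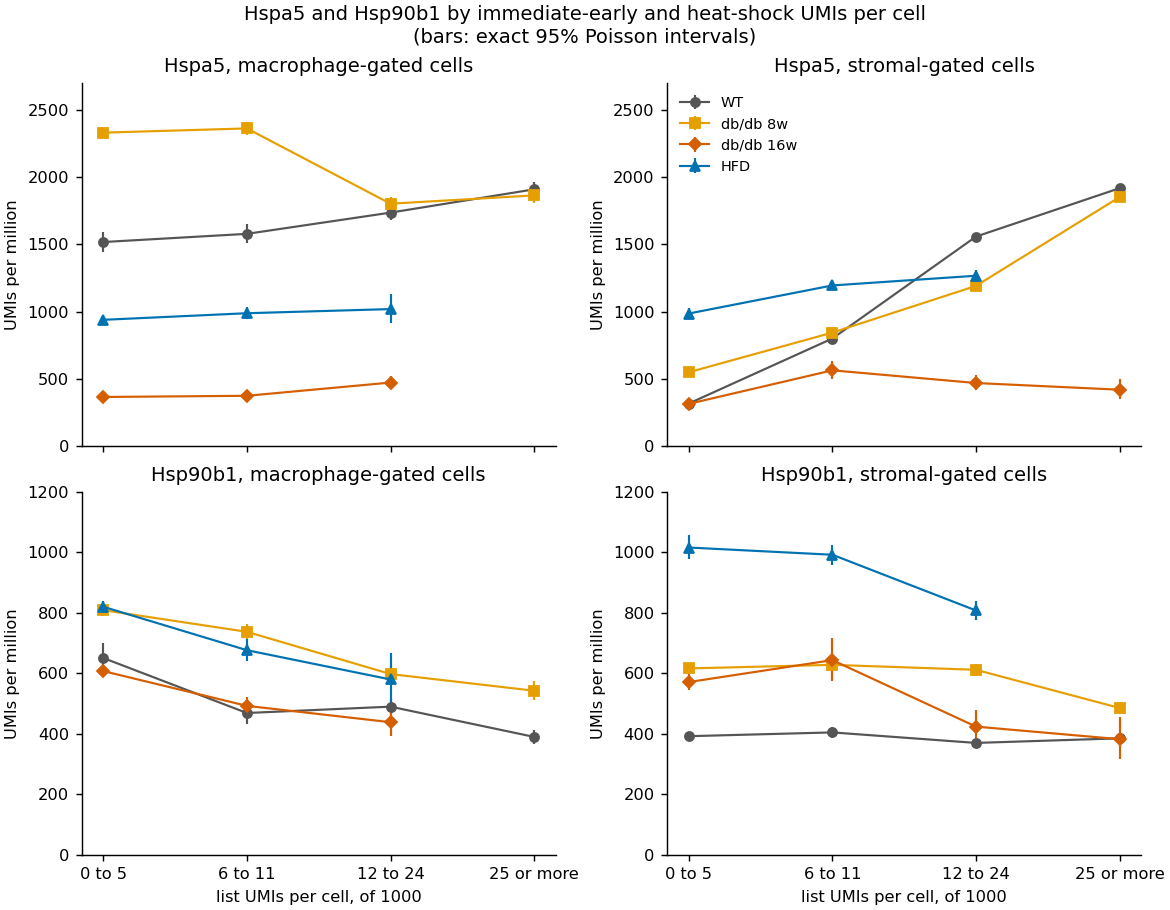
Hspa5 (top) and Hsp90b1 (bottom) in CPM, from 0, in macrophage-gated (left) and stromal-gated cells (right) split by the number of immediate-early and heat-shock UMIs among 1000 UMIs of a cell, 1 line per library, with exact 95% Poisson intervals and classes of under 50 cells left out. Stromal Hspa5 of WT goes from 316 to 1918 CPM, while macrophage Hspa5 of db/db 16w stays between 365 and 472.

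Shares of cells with at least 1 UMI were compared after each cell was thinned to 1000 UMIs, which 1055, 2400, 2219 and 1407 macrophages and 4228, 5394, 1076 and 1639 stromal cells had. Every nucleated cell uses these genes, so no cell type here gives a background share. Hspa5 was seen in 69.5%, 73.9%, 27.7% and 55.2% of macrophages (94.8%, 94.3%, 75.6% and 95.8% unthinned) and in 43.4%, 47.6%, 24.1% and 63.6% of stromal cells (79.9%, 72.7%, 51.6% and 96.6% unthinned). The thinned macrophage shares keep the order of the CPM values, and the unthinned ones do not. The stromal shares do not, db/db 8w and HFD being above WT in thinned share and below it in CPM, and no order is read from them. Thinned macrophage shares were 30.7%, 44.3%, 37.8% and 51.3% for Hsp90b1 (76.8%, 85.0%, 81.9% and 92.3% unthinned). They were 2.5%, 8.2%, 5.9% and 7.0% for Sdf2l1 (18.5%, 35.8%, 35.2% and 39.3% unthinned), and WT was the lowest library for both genes at either depth.

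Hspa5 of db/db 16w was much the same in cells with Xist and in cells with Y-chromosome RNA. It was at 389 CPM (376 to 402) in the 990 macrophages with Xist and no Y-chromosome UMI and at 399 (369 to 431) in the 174 with a Y-chromosome UMI and no Xist, and in stromal cells at 394 and 395 in 676 and 50 cells. Hsp90b1 differed between these macrophages, at 570 (554 to 586) and 739 CPM (698 to 782). So did the summed 10 genes, at 1784 (1756 to 1813) and 1970 (1902 to 2040). Atf4 went the other way, at 128 (120 to 136) and 96.4 (81.8 to 113). Cells with neither kind of RNA or with both were left out. Barcodes removed by the mitochondrial limit were compared with kept ones over non-mitochondrial UMIs. Hspa5 of the removed macrophages differed from that of the kept ones by log2 ratios of -0.44 (WT), -0.16 (db/db 8w) and 0.23 (HFD), that of stromal cells by 0.59, -0.11 and -0.20, and db/db 16w had under 50 such barcodes per lineage. In HFD 1083 macrophages were removed and 1407 kept. The removed ones held more Herpud1 (0.93, 0.69 to 1.16), Atf4 (0.52) and Ddit3 (0.50), and less Sdf2l1 (-0.66) and Calr (-0.28). Accordingly, the log2 ratio of Herpud1 to WT in HFD macrophages was -1.96 at a 10% limit and -1.42 without a limit.

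Lineages were then compared within each library, which makes each of the 4 libraries a pair. Sdf2l1 was higher in macrophage-gated than in stromal-gated cells in 4 of 4 libraries, with log2 ratios of 1.16, 2.34, 2.62 and 2.47 and a mean of 2.15 ± 0.67 (SD, n = 4), or 4.43-fold. Calr was higher in 4 of 4 as well, by 0.64, 0.68, 0.50 and 0.34 (mean 0.54 ± 0.15). Xbp1 was lower in 4 of 4, by -0.14, -0.41, -0.50 and -0.58 (mean -0.41 ± 0.19). The exact two-sided sign-flip permutation test over the 4 libraries gave p = 0.125 for each of the 3 genes, the smallest that 4 pairs allow, and 0.417 after Benjamini-Hochberg adjustment over the 10 genes. The other 7 genes did not have the same direction in all 4 libraries, and their sum with the 3 differed by a mean log2 ratio of 0.30 ± 0.39 (exact p = 0.25, higher in 3 of 4).

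The study is about lipid-associated macrophages (LAMs), which take up lipid and express Trem2, Cd9 and Gpnmb. The 6 LAM markers summed to 951, 7708, 16379 and 14626 CPM in macrophage-gated cells and the 4 markers of perivascular macrophages (PVMs: Lyve1, Folr2, Cd163 and Cbr2) to 3214, 1817, 470 and 346, so the makeup of the macrophages changed along with the 10 genes. Cells with at least 2 LAM or PVM UMIs of 1000, and more of one than of the other, were called LAM-gated or PVM-gated. This gave 90, 1003, 1894 and 1269 LAM-gated and 701, 1011, 169 and 26 PVM-gated cells, and HFD was left out for its 26 cells. LAM-gated cells were deeper, with medians of 7194 to 10043 UMIs against 2999 to 5667 in PVM-gated cells of the 3 libraries. The 6 LAM markers are not particular to macrophages. In stromal-gated cells they summed to 1862, 2998, 4816 and 4381 CPM, in WT more than in macrophage-gated cells. Whether the 90 LAM-gated cells of WT hold stromal RNA was not tested, and this limits the WT pair below.

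Hspa5 did not differ in 1 direction between both subsets. It was at 2081 CPM in LAM-gated and 1541 in PVM-gated cells of WT, at 2160 and 2136 for db/db 8w, and at 366 and 521 for db/db 16w. The levels of db/db 16w were the lowest of the 3 libraries in either subset. Sdf2l1 was higher in LAM-gated cells in 3 of 3 libraries, at 68.4 against 32.8 CPM (WT), 160 against 66.3 (db/db 8w) and 93.6 against 47.8 (db/db 16w), a mean log2 ratio of 1.10 ± 0.16 (SD, n = 3; exact sign-flip permutation p = 0.25). Calr (0.55 ± 0.15), Ddit3 (0.36 ± 0.02) and Hsp90b1 (0.28 ± 0.06) were also higher in 3 of 3, and Herpud1 (-0.87 ± 0.82) and Xbp1 (-0.19 ± 0.17) lower in 3 of 3. The Xbp1 ratio of WT was -0.0038, and without db/db 16w the Herpud1 mean was -0.39. Ddit3 ratios had counting intervals of 0.02 to 0.72 (WT), 0.14 to 0.55 (db/db 8w) and -0.41 to 1.24 (db/db 16w). The db/db 16w interval spanned both signs, and the SD of 0.02 does not cover counting error. With 3 pairs p = 0.25 is the smallest exact value, reached by each of these 6 genes (0.417 adjusted over 10), so none passes a threshold of 0.05. Within either subset Sdf2l1 was lowest in WT of the 3 libraries. Its db/db 16w level was closer to WT there, at 93.6 against 68.4 CPM in LAM-gated and 47.8 against 32.8 in PVM-gated cells. Over all macrophages it was at 90.3 against 37.1 CPM. LAM-gated cells made up 85.4% of the macrophages in db/db 16w and 8.53% in WT.

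**Figure D4:**
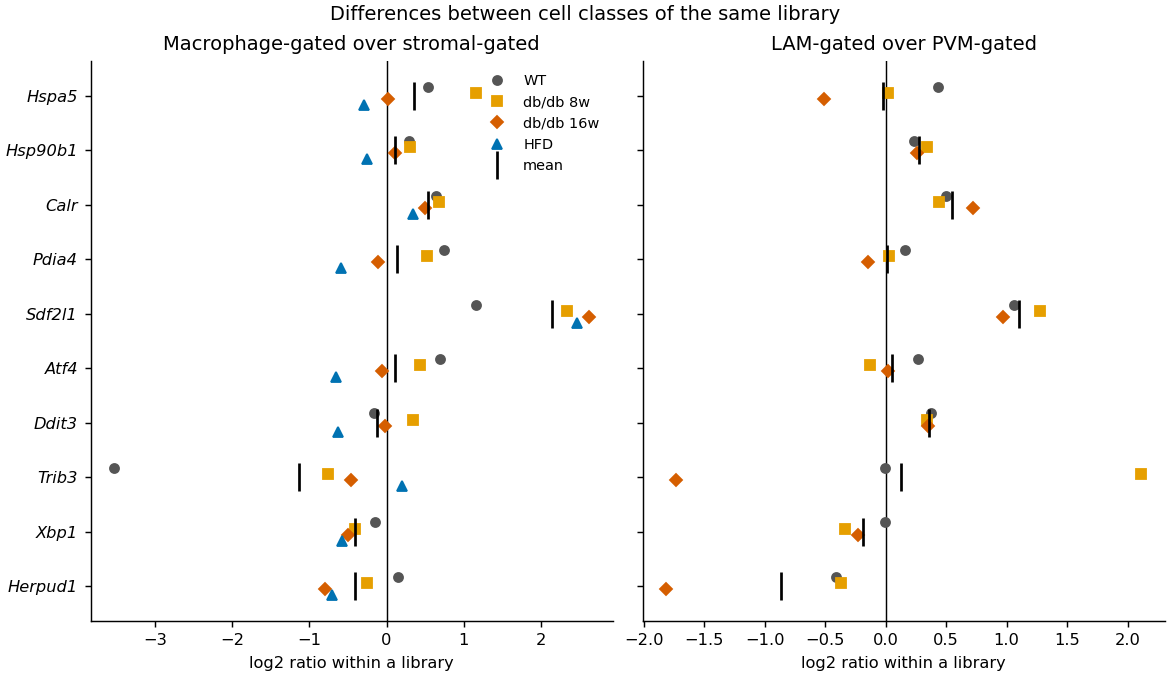
Log2 ratio within each library of macrophage-gated over stromal-gated cells (left, 4 libraries) and of LAM-gated over PVM-gated macrophages (right, 3 libraries, HFD left out), 1 point per library, with the mean as a black bar. Sdf2l1 lies right of 0 at every point in both panels, with means of 2.15 and 1.10, while Hspa5 lies on both sides of 0.

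Cycling macrophages, with at least 2 of 1000 UMIs from 6 proliferation genes, numbered 11, 56, 295 and 77, so WT was left out. Hspa5 was at 1649 against 2221 CPM in other macrophages of db/db 8w, at 353 against 377 for db/db 16w and at 781 against 965 for HFD, lower in 3 of 3 (mean log2 ratio -0.28 ± 0.17). Calr (-0.30 ± 0.21), Xbp1 (-0.36 ± 0.28) and Herpud1 (-0.27 ± 0.18) were lower in 3 of 3 too, and Hsp90b1 higher (0.17 ± 0.20). The exact sign-flip permutation p of each was 0.25, the smallest possible, and 0.5 adjusted over the 10 genes.

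Across 10 points, the lineages of each library with at least 100 cells, the 6 genes most like the summed 5 ER chaperones among 5526 genes were Cxcl1 (r = 0.94), Dnajc13, Rpl23a, Dmxl1, Snx10 and Exoc3 (r = 0.92). Those most like the summed PERK branch were Rsrc2 (r = 0.96), Zbtb11, Dnaja1, Yy1, Top1 and Chuk (r = 0.94). The r is Pearson's on log2(CPM + 10), points of a library share its preparation and depth, and the values are a description only.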

How the data were processed

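The authors deposited raw UMI counts, whole numbers for each gene in each barcode, made from 10x Genomics 3′ libraries with Cell Ranger (7.1.0 by the submitters' processing notes, 6.0.0 by the file headers) on mouse mm10. The 32285 gene IDs were the same in the 4 files, and 32158 were found in the GRCm38 annotation. The 10 members and all lists were chosen with earlier results of these data known.

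Following the study, kept barcodes had more than 250 but fewer than 6000 genes, more than 500 but fewer than 30000 UMIs, and a mitochondrial share below 15%. Total kept counts of 26558173 to 53420105 UMIs per library set the precision. Counts were summed over gated cells and divided by all their UMIs. Rows of 1 symbol were summed. Ratios were taken without an added count, a count of 0 being set to 3 counts, and given exact conditional binomial intervals, shares exact (Clopper-Pearson) 95% intervals. Doublets were kept. They were removed in an alternative, by the highest Scrublet scores (scanpy 1.11.5) down to 0.8% per 1000 barcodes. TMM factors came from edgeR 4.0.16 in R 4.3.3. Other code ran in Python 3.11.15, and the ratios and calls were tested on simulated data. Beyond the members, the text names up to 3 genes per pathway list, those with the largest ratio in db/db 16w in either lineage, and the 6 genes most like each summed branch. Cells without a lineage (525 to 2255 per library) entered only the sums over all cells.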

Additional observations from a re-analysis of the deposited data

Results flagged for a closer look

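Both results below compare 1 library with WT in each lineage. In both, macrophage-gated and stromal-gated cells of that library lay on opposite sides of WT, each outside its counting interval, and the difference was not tested. They are not the only such results. Xbp1 in HFD (-0.33 and 0.10), the summed 10 genes in HFD (-0.16 and 0.47) and Trib3 in db/db 8w and HFD met this as well. Hspa5 in db/db 8w was above WT in macrophages (log2 ratio 0.33) and below it in stromal cells (-0.28), a difference of 0.61. In cells with 0 to 5 immediate-early and heat-shock UMIs it was above WT in both (0.62 and 0.80). Atf4 in HFD was below WT in macrophages (-0.74) and above it in stromal cells (0.62), a difference of -1.35, and the same held in cells with 0 to 5 such UMIs (-0.94 and 0.96).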

How the results depend on the processing

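No paired analysis was possible because each group had 1 library, as far as the ratios to WT go, and these come from no test. Only lineages and subsets of the same library were paired.

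Summed levels are log2 ratios to WT. In db/db 8w macrophages the sum of 0.39 became 0.41 without a mitochondrial limit, 0.36 at 95% gate purity, 0.43 without mitochondrial and ribosomal genes and 0.46 with TMM. In db/db 16w macrophages -0.97 became -1.002 at a 10% mitochondrial limit, -0.998 thinned to 1000 UMIs, -0.94 without the limit, -0.86 without mitochondrial and ribosomal genes, -0.66 with TMM and -0.93 in cells with Xist. In HFD macrophages -0.16 became -0.19 at 95% purity, -0.087 without those genes, -0.27 with TMM, -0.10 as a mean over cells and -0.071 thinned. In db/db 8w stromal cells 0.12 became 0.14 at a 10% limit and at 60% purity, 0.076 without the limit, 0.10 at 95% purity, 0.069 with TMM, 0.18 as a mean over cells and 0.17 thinned. In db/db 16w stromal cells -0.66 became -0.61 without those genes, -0.76 with TMM and -0.58 in cells with Xist. In HFD stromal cells 0.47 became 0.48 at a 10% limit, 0.37 without it, 0.44 at 60% and 0.50 at 95% purity, 0.49 without those genes and without doublets, 0.22 with TMM, 0.63 as a mean over cells and 0.63 thinned. In cells with 0 to 5 immediate-early and heat-shock UMIs, an alternative added after the data were seen, the macrophage sums were 0.49, -0.95 and -0.12 and the stromal sums 0.67, 0.19 (reversed) and 1.26. No other alternative reversed a sum.

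Members higher than WT in macrophages numbered 1 in HFD and 1 in db/db 8w at a fold of 2, and 2 in db/db 16w with TMM. Members lower numbered 1 in db/db 8w when thinned and 2 in HFD at a fold of 2. In stromal cells 0 were higher at a fold of 2 in either db/db library. Those lower were 2 in db/db 8w with a filter of 5 CPM and 0 at a fold of 2, and in HFD 1 as a mean over cells and 0 at a fold of 2. Under the alternatives chosen at the start, the other 165 values of sums and counts stayed within the counting interval or within 1.5 times the count.

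Single genes reversed as follows. Stromal Hspa5 of HFD (-0.04) became 0.0014 at 95% purity, 0.21 as a mean over cells, 0.0046 without doublets and 0.21 thinned, and stromal Xbp1 of HFD (0.10) became -0.15 with TMM. In cells with 0 to 5 list UMIs the macrophage ratios of db/db 8w became 0.22 for Ddit3 and 0.080 for Herpud1, and Hsp90b1 of db/db 16w -0.10. In the same cells the stromal ratios became 0.80 (Hspa5), 0.073 (Ddit3) and 0.14 (Herpud1) in db/db 8w, 0.23 for Calr in db/db 16w, and 1.64 (Hspa5) and 0.57 (Ddit3) in HFD. Whether the list or the cell types it sorts sets these values was not tested.

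Leaving out 1 library, the mean log2 difference of the 10 genes ranged from 0.16 to 0.46 for macrophage-gated against stromal-gated cells, from 0.11 to 0.26 for LAM-gated against PVM-gated and from -0.24 to -0.06 for cycling macrophages. The lowest and highest were those without db/db 8w and without HFD, without WT and without db/db 16w, and without db/db 16w and without db/db 8w. With a subset minimum of 3 UMIs WT had 49 LAM-gated cells and was left out. With 1 library per group the ratios to WT have no check between mice.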
